A study of Mus musculus with 4 samples.

Results

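Regions of open chromatin that were called in Chaf1b knockout thymocytes and in no overlapping place in wild type are described here. The assay was ATAC-seq, which uses a transposase to insert sequencing adapters where DNA is open, on 50000 sorted CD4+CD8+ double-positive (DP) thymocytes per sample. Both groups were C57BL/6 mice carrying loxP-flanked Chaf1b alleles on both chromosomes. The wild type (WT) group, CHAF1b floxp/floxp, is labelled without Cre. The knockout (KO) group, Cd4-cre;CHAF1b floxp/floxp, carried Cd4-cre, a transgene that drives Cre from Cd4 regulatory sequence, so deletion depends on where and when that transgene acts. No ages are given in the labels. Each group had 2 replicates, and the authors deposited 1 peak list per group made from both, so there was no value per replicate and no test between groups. Of 7645 regions in the KO list, 565 had no overlap of 1 bp or more with any of the 15215 WT regions (7.39%), and these 565 are called KO-only. The regions were thus chosen by the presence of a KO peak call and the absence of a WT call, so their reads, fold enrichments and absence from WT are given as descriptions. For scale, 8189 WT regions had no KO region (53.8% of the WT list).

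Chaf1b encodes p60, a part of the histone chaperone CAF-1 (chromatin assembly factor 1). CAF-1 places histones H3 and H4 on DNA behind the replication fork. ATAC-seq reports where nucleosomes leave DNA uncovered, chiefly promoters and enhancers. A promoter is the stretch before a gene's start at which transcription factors and RNA polymerase assemble, and an enhancer acts from a distance. DP thymocytes are the stage at which T cell receptor rearrangement ends and from which invariant natural killer T (iNKT) cells are selected.

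A KO-only region overlapped a RefSeq promoter window, 250 bases before to 50 after a start site on GRCm38.p6, in 110 cases, 24 of them within 1 kb of a WT region. The 250 bases before the start are shown for 8 of these. Bcl2l11 and Id3 belong to gene lists of thymocyte biology. Ube2k, Rbmx, Gfod2, Kdm8 and Rpl36al had the highest fold enrichments among such promoters of named protein-coding genes, and Zfp984 the most reads. Each sequence runs 5′ to 3′ on the gene's strand and ends at the base before the start site, and capitals mark the bases inside the KO-only region.
Bcl2l11 (chr2:128127325-128127574, + strand): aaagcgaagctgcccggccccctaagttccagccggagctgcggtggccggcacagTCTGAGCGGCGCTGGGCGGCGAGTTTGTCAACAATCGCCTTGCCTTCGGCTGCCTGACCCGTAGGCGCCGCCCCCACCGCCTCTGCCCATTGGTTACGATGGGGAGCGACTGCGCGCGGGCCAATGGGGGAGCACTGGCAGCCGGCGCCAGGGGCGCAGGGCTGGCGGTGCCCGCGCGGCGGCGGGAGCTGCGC
Id3 (chr4:136143572-136143821, + strand): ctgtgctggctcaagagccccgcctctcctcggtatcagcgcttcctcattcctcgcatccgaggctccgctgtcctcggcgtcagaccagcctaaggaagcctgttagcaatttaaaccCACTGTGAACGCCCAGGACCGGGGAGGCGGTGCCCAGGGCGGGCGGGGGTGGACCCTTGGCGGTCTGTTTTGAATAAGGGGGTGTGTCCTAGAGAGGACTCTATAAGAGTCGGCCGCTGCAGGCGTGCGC
Ube2k (chr5:65536995-65537244, + strand): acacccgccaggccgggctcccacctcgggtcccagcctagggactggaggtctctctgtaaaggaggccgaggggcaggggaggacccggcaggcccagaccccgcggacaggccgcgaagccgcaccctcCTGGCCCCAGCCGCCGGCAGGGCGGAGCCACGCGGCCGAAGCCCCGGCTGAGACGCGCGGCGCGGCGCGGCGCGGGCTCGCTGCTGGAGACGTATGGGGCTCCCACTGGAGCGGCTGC
Rbmx (chrX:57393037-57393286, - strand): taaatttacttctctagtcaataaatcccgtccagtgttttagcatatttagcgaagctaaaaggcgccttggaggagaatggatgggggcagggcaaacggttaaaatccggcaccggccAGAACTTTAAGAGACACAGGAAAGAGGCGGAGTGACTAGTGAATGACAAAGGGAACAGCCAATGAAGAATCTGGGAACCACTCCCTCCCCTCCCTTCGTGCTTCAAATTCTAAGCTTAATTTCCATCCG
Gfod2 (chr8:105758608-105758857, - strand): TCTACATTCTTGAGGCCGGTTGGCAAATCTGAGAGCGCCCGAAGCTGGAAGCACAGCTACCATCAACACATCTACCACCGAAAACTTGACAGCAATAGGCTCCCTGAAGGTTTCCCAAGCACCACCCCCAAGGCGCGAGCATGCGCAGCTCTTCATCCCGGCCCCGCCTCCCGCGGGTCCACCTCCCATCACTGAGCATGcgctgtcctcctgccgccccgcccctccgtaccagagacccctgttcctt
Kdm8 (chr7:125444370-125444619, + strand): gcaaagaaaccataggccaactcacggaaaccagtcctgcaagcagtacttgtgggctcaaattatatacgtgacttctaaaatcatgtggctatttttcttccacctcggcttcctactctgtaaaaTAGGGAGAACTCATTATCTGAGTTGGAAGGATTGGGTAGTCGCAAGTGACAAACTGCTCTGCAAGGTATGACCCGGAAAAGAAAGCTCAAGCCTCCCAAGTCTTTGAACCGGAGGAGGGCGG
Rpl36al (chr12:69184068-69184317, - strand): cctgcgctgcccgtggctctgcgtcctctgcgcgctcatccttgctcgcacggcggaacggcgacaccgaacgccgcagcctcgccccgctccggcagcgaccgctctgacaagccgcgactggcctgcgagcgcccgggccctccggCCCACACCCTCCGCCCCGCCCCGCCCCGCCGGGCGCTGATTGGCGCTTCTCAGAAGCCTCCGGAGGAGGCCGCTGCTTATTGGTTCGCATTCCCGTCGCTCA
Zfp984 (chr4:147809789-147810038, - strand): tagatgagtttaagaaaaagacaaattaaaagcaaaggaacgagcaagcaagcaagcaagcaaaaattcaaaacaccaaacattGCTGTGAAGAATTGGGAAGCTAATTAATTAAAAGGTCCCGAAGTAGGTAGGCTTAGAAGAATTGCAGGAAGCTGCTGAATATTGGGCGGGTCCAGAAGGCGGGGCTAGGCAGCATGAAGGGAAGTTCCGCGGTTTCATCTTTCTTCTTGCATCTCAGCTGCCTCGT
The capitals cover between 102 of the 250 bases, at Rpl36al, and 200, at Gfod2. The GC box GGGCGG, read on both strands, occurs 3 times before the start of Rpl36al, 2 times each at Bcl2l11, Id3 and Gfod2, and once each at Ube2k, Kdm8 and Zfp984. Before the Rbmx start it was not found in these 250 bases. The CCAAT box was found 2 times each at Bcl2l11, Rpl36al and Zfp984 and once each at Rbmx and Kdm8. At Gfod2 both GC boxes lay outside the capitals, nearer to the start. These matches describe letters, and binding was not measured.

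KO-only regions were weak. The number of reads stacked over a region's summit, the summit pileup, had a median of 12 (quartiles 10 and 13), against 16 (13 and 21) in the 7080 KO regions that overlapped a WT region. Pileups of 7 to 16 reads held 527 of the 565 regions (93.3%), while 3254 of the shared regions (46.0%) had 17 or more. Median fold enrichment at the summit, the authors' value, was 5.41 (4.88 and 6.13) in KO-only and 6.83 (5.81 and 8.33) in shared regions. The share of KO regions without a WT region fell from 28.03% (88 of 314, exact 95% interval 23.1 to 33.3) at 7 to 9 reads to 18.5% (16.05 to 21.1) at 10 or 11, 12.9% (11.2 to 14.7) at 12 or 13, and 4.88% (3.90 to 6.02) at 14 to 16. At 17 to 30 reads it was 1.27% (34 of 2681, 0.880 to 1.77). Both lists were limited to regions of at least 200 bp, and 206 KO-only regions (36.5%) had exactly that width, against 8.70% of shared regions. Together the KO-only regions covered 134 kb.

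**Figure D1:**
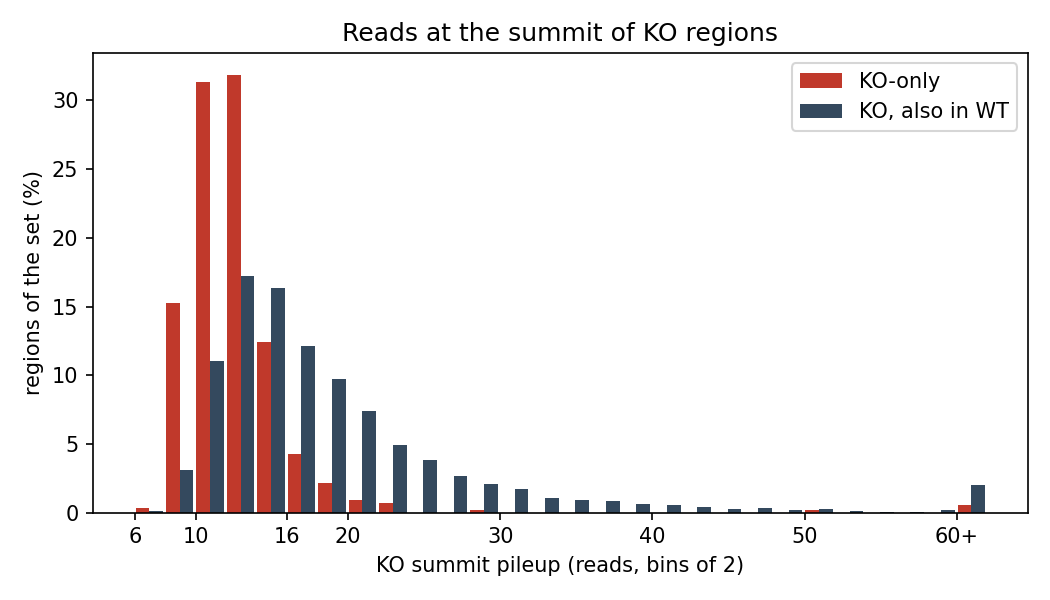
Summit pileup in reads, in bins of 2, against the percentage of regions of each set, for 565 KO-only regions (red) and 7080 KO regions that overlap a WT region (dark). KO-only regions crowd between 8 and 16 reads, with a median of 12 against 16, and the last bin collects all regions of 60 reads or more.

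How many reads WT had at these sites was not measured, since an uncalled site has no entry, but the WT list sets a limit. The genome background of the lists, which follows sequencing depth, came to 1.37 reads for WT and 1.03 reads for KO, a relative KO depth of 0.752. With each region's local background scaled to WT depth, the lowest pileup that reaches the lowest significance in the WT list was 7 reads at the genome background and a median of 8 over KO-only regions. Dividing KO reads by the depth ratio, 284 of 565 KO-only regions (50.3%) exceeded that limit at the lower exact 95% Poisson bound, where 81.7% of all KO regions did. At the other 281 the KO reads, within counting error, were too few to exceed what an uncalled WT site could hold. A WT call also needs a stretch of at least 200 bp, so a site above the limit can stay uncalled, and the local WT background was not measured. The intervals cover counting error and not the spread between mice. They also do not cover the choice of these regions by their KO call, through which their KO reads can be too high. The count is thus a description and no test of an excess over WT.

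On a log scale, distances from KO-only regions to the nearest WT region fell into 2 groups. A WT region lay within 1 kb of 125 of them (22.1%, 18.8 to 25.8), within 500 bp of 99 and within 100 bp of 25. Between 1 and 3 kb lay 24, and between 3 and 100 kb, a far wider span, 338. The median over all was 15.3 kb (quartiles 2.05 and 49.5 kb), 77 were more than 100 kb away and 7 more than 1 Mb. Of the 125 WT neighbours within 1 kb, 85 had no overlapping KO region themselves and 40 did. Of all WT regions, 53.8% had no KO region. The neighbours had a median of 17 WT reads and the KO-only regions beside them 12 KO reads. In those 85 cases each list had a call within 1 kb that the other lacked, so the rule separated calls that lie side by side.

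**Figure D2:**
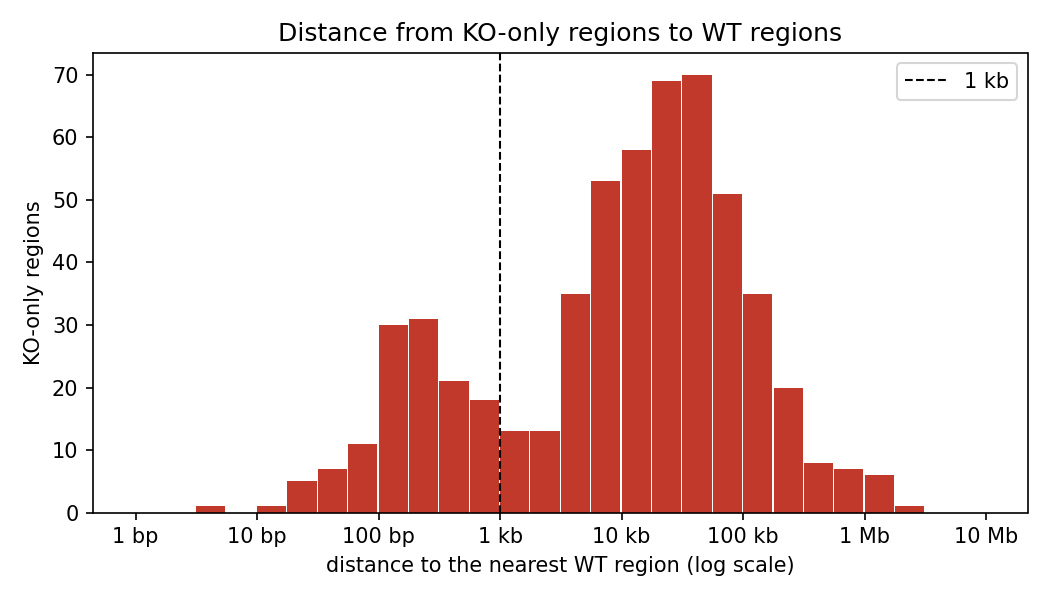
Number of KO-only regions by distance to the nearest WT region, on a log scale, with a dashed line at 1 kb. There is a smaller group around 100 to 300 bp, a dip between 1 and 3 kb and a larger group around 10 to 60 kb. Bins span more bp at larger distances, so their heights are not densities per bp.

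Just inside the rule, the closest were a region 5 bp from a WT region and 1.02 kb from Elobl (13 KO reads, 13 reads in the WT neighbour), and regions at the ends of Usp48, a deubiquitinase (16 bp away, 11 and 16 reads), and Mms22l, a protein of replication fork repair (25 bp, 11 and 13 reads). Next came a region inside Apold1 and at the end of the predicted gene Gm36428 (27 bp, 12 and 17 reads) and one at B3gnt9 (27 bp, 9 and 13 reads). The WT neighbour had no KO region in any of these 5. Just outside the rule, regions counted as shared overlapped by 4 bp near Poc1b (12 KO reads), 5 bp at Wls (12) and 9 bp at Gorasp2 (9). Values on the 2 sides of the rule were alike in size.

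Fewer than 4 in 10 KO-only regions were at gene ends, meaning within 1000 bp of the first or the last annotated base of a gene. Of the 562 on assembled chromosomes, 220 lay at a gene end (39.1%, 35.1 to 43.3), 224 in a gene body (39.9%, 35.8 to 44.0) and 118 between genes (21.0%, 17.7 to 24.6). Shared KO regions were at gene ends in 61.8% (60.6 to 62.9), in gene bodies in 24.7% and between genes in 13.5%. In WT regions without a KO region the shares were 45.5% (44.5 to 46.6), 35.8% and 18.6%. The gap to shared regions was also present at equal reads. At 12 or 13 reads 41.1% (33.8 to 48.7) of KO-only and 57.2% (54.3 to 59.97) of shared regions were at gene ends, with 41.9% (39.6 to 44.3) in WT-only regions of that pileup. At 10 or 11 reads the shares were 37.9%, 61.3% and 40.7%. KO and WT reads were set side by side here without scaling, though the relative KO depth was 0.752. In WT-only regions the share at gene ends was 47.1% at 14 to 16 reads and 49.8% at 17 to 30. The split by distance mattered for this share, because 74 of the 123 placed regions within 1 kb of a WT region were at gene ends, against 146 of 439 farther away (33.3%, 28.9 to 37.9). Regions are not replicates, so no test between mice stands behind these differences. The gene table used holds no exons, so gene bodies were not divided further.

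**Figure D3:**
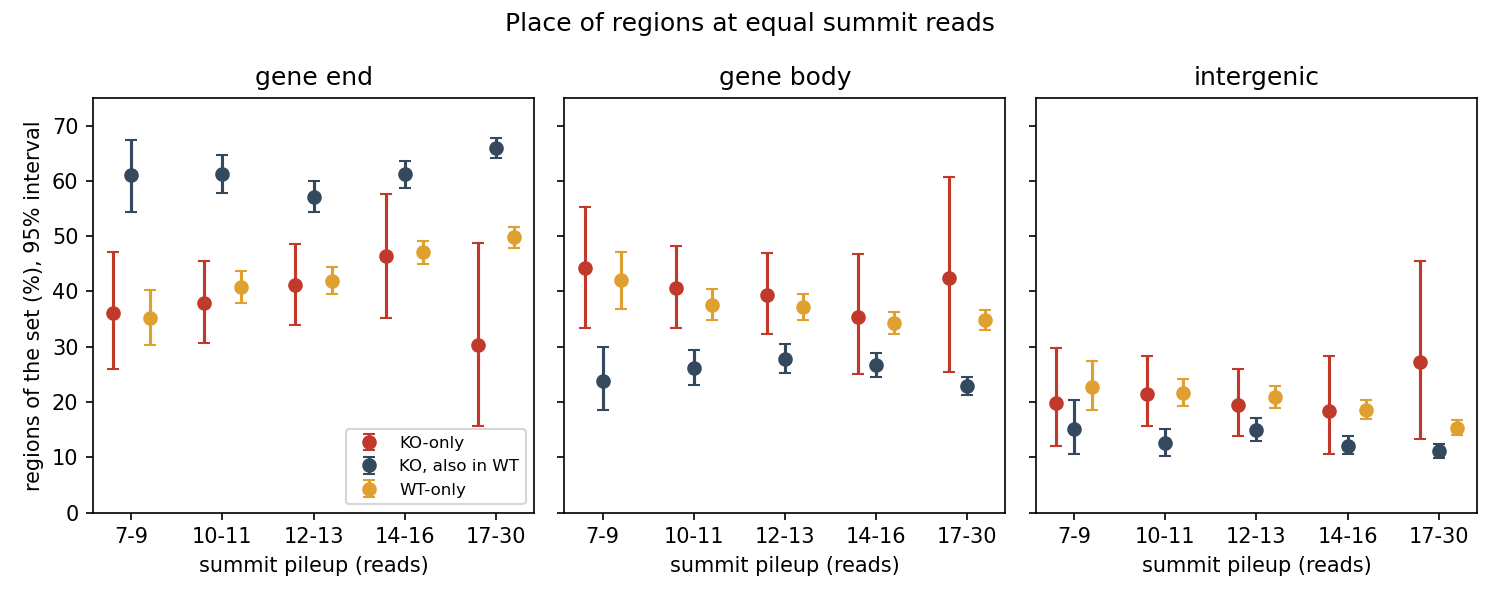
Percentage of regions at gene ends, in gene bodies and between genes, by summit pileup in reads of the list the region comes from, with exact 95% intervals, for KO-only (red), shared KO (dark) and WT-only regions (yellow). At 7 to 13 reads KO-only regions sit near WT-only regions and below shared regions at gene ends. Reads are not scaled to depth.

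At gene starts, KO-only summits were more scattered than shared ones. The start sites used leave out some protein-coding genes. For the region at Tmem161a, for instance, the nearest listed start was that of Mef2b, 20143 bp away. Shares near a start, and the 110 promoter cases, can therefore be too low, and some offsets refer to another gene. A summit lay within 1 kb of a RefSeq start site in 177 KO-only regions (31.5%, 27.7 to 35.5), in 52.4% (51.2 to 53.6) of shared and in 36.8% (35.8 to 37.9) of WT-only regions. Of these 177, 95 were within 150 bp of the start (53.7%, 46.0 to 61.2), against 74.6% (73.2 to 76.0) of shared and 66.6% (64.8 to 68.2) of WT-only regions. The summit was upstream of the start in 54.2% (46.6 to 61.7) of KO-only, 73.1% (71.7 to 74.5) of shared and 58.9% (57.1 to 60.7) of WT-only regions. Median positions were 11, 47 and 18 bp upstream in that order, with upper quartiles 194, 6 and 79 bp into the gene. Among regions of 10 to 13 reads, 17.1% (13.3 to 21.4) of all KO-only and 36.0% (33.8 to 38.1) of all shared regions had a summit within 150 bp of a start. In WT-only regions of 10 to 13 WT reads, not scaled to KO depth, it was 19.7% (18.3 to 21.2). The rule bars overlap with a WT region, so where WT has a call at a start, a KO-only region can only lie beside it. Of the 217 protein-coding genes with a KO-only region at an end, 97 also had a WT region at an end. What part the rule had in the scatter was not tested.

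**Figure D4:**
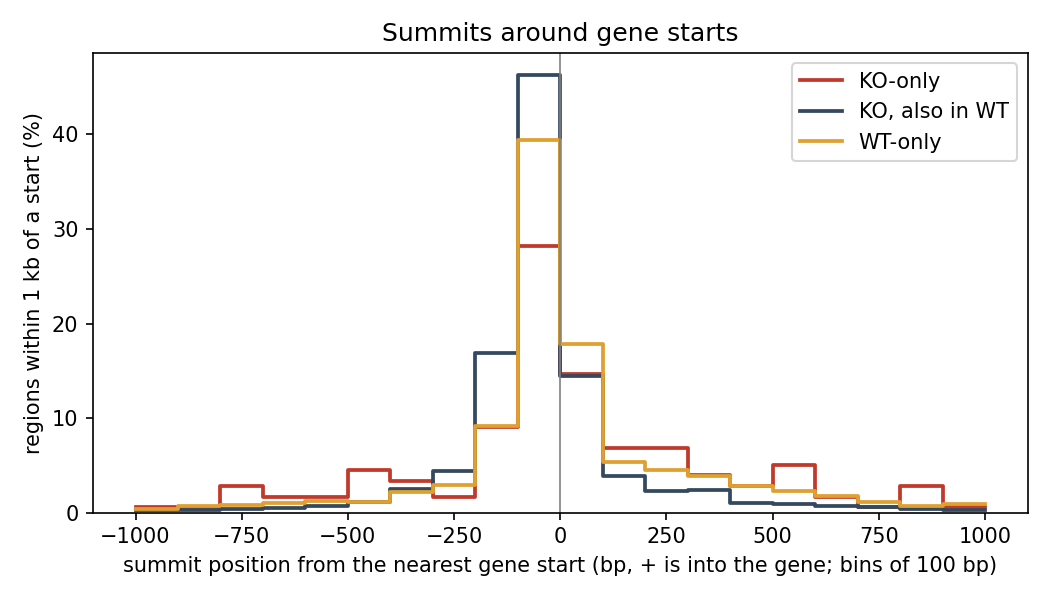
Position of the summit relative to the nearest start site in bp, positive into the gene, in bins of 100 bp, as a percentage of the regions of each set within 1 kb of a start. The peak just upstream of the start holds 28.2% of KO-only (red), 46.3% of shared (dark) and 39.4% of WT-only regions (yellow).

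The promoters under KO-only regions were CpG-rich, less so than those under shared regions. Their 300-base windows had a median GC content of 58.2% (quartiles 53.1 and 67.9) and 20 CpG dinucleotides (12 and 29). Windows under shared KO regions had 62.7% and 23, those under WT-only regions 61.3% and 22, and all 32851 RefSeq windows had 52.7% and 7. With regions of 10 to 13 reads alone, the medians were 58.3% and 20 in 71 KO-only and 63.0% and 24 in 868 shared regions. A GC box (GGGCGG on either strand), the site of SP and KLF factors, was in 60.9% (51.1 to 70.1) of the 110 KO-only windows, 74.5% (73.0 to 76.0) of shared and 35.7% of all windows. The CCAAT box (CCAAT on either strand), the site of NF-Y, was in 37.3% (28.2 to 47.0) of KO-only, 53.0% (51.3 to 54.7) of shared, 35.0% of WT-only and 37.4% of all windows. CCGGAAG, a form of the ETS factor site, was in 17.3% (10.7 to 25.7) against 21.1% of shared and 8.86% of all windows. For TGTGGT, a RUNX core, 22 of the 110 KO-only windows had a match (interval 12.98 to 28.7%), and the shares were 11.7% (10.6 to 12.8) in shared and 16.8% in all windows, and for the E box CAGCTG 19.1% (12.2 to 27.7), 13.3% and 16.3%. The NRF1 site (10.0%, 12.3% of shared, 4.60% of all), the CRE TGACGTCA (4.55%, 3.56% and 1.79%) and TATAAA (10.0%, 4.66% and 13.6%) were in few. Of these motifs, only the shares of the GC and CCAAT boxes, RUNX core and TATAAA had intervals in KO-only windows that excluded the share in shared windows. In WT-only windows the GC box was in 66.5%, TATAAA in 6.12% and the RUNX core in 12.6%. The KO-only intervals of the GC box, the CCAAT box and TATAAA held the WT-only shares, and that of the RUNX core did not. The RUNX interval began just above the WT-only share and held the 16.8% of all windows. Matches were counted over the whole 300-base window. Among the 22 windows, no RUNX match lay inside the KO-only region at Eif5b, 1700066M21Rik, Usf1, 9530068E07Rik, Timm22, Ccdc50, Cyb561a3, Zfp583, Prxl2b or Fdx2. The RUNX share thus counts many windows without a match in the region itself. The intervals were not adjusted for the number of motifs.

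The promoters belonged to genes of many kinds. In 92 named protein-coding genes, 7 were zinc finger genes named Zfp, which mostly encode DNA-binding repressors (7.61%, 3.11 to 15.1). They were Zfp418, Zfp422, Zfp583, Zfp759, Zfp850, Zfp976 and Zfp984, a grouping made after the values were seen. Under shared regions the share was 120 of 2929 (4.10%, 3.41 to 4.88) and under WT-only regions 64 of 2064 (3.10%), so the interval for KO-only genes holds the shared value. Also chosen after their values were seen, Rad18, the ubiquitin ligase that modifies PCNA, had a region with 13 reads (6.92 to 22.2) and its summit 23 bp upstream of the start, 148 bp from a WT region. Cbx3, which encodes the heterochromatin protein HP1 gamma, had 12 reads (6.20 to 21.0), 448 bp from a WT region. At Rfc1, the large subunit of the complex that loads PCNA, there were 8 reads (3.45 to 15.8), 55.5 kb from the nearest WT region. The lower bound of the scaled reads exceeded the WT limit at Rad18 and did not at Cbx3 and Rfc1.

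The order by fold at gene ends given here covers protein-coding genes, and regions at the ends of other genes, such as Gm48432 (15 reads, fold 7.77), Gm5038 and Gm13418 (14 reads and 7.38 each), are left out of it. The strongest KO-only region at such an end, and in the whole set, was at Tmem161a (chr8:70172764-70173009), with 23 reads (14.6 to 34.5) and a fold of 9.45. A WT region of 18 reads lay 157 bp away. Wnt10a, a WNT ligand gene, had a region near its high-coordinate end (chr1:74803094-74803321) with 16 reads (9.15 to 26.0) and a fold of 8.02, which corresponds to 21.3 reads at WT depth against a limit of 8. The nearest WT region was 13.6 kb away. A region of 14 reads (fold 7.38, chr5:65537127-65537441) lay where Smim14 and Ube2k, a ubiquitin-conjugating enzyme gene, meet, 67 bp into Ube2k from its start, and 44.0 kb from a WT region. Rbmx, an X-linked gene for an RNA-binding protein, also had 14 reads (fold 7.35, chrX:57392912-57393165), with the summit 20 bp upstream of the start and 87.8 kb from a WT region. These 4 thus differ in how isolated they are, from side by side with a WT call to 87.8 kb away. Then followed Pak4, a kinase gene (18 reads, fold 7.09), the olfactory receptor gene Olfr1351 (13 reads, 6.89), Gfod2 (13 reads, 6.80), Kdm8, which encodes a JmjC-domain protein (14 reads, 6.76, 66 bp from a WT region of 22 reads), the divergent pair Rpl36al and Mgat2 (15 reads, 6.72), and Zfp444 (20 reads, 6.69, 206 bp from a WT region of 39 reads). Over all 217 protein-coding genes with a KO-only region at an end (0.991% of 21887), 97 also had a WT region at one of their ends and 120 did not, and 38 had a further KO region there that WT shared. Of all 21887 genes, 34.6% had a WT region at an end and 20.3% a KO region shared with WT.

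In the bodies of protein-coding genes the highest values were inside Serpinb1c, a serpin gene (17 reads, 9.90 to 27.2, fold 8.49, chr13:32898395-32898630), Mettl21a, a lysine methyltransferase gene (17 reads, 8.26, chr1:64617119-64617380), and Dapk1, encoding death-associated protein kinase 1 (21 reads, 13 to 32.1, fold 8.21, chr13:60612215-60612467). Being in a gene body means here that a region lay more than 1000 bp from the gene's first and last annotated base. A start inside the gene can still be near. The Serpinb1c summit was 421 bp upstream of a listed start of that gene, and the Mettl21a summit 518 bp into the gene from one. No listed start lay within 1 kb of the summit in Dapk1 (10134 bp) or in the other body regions named here. Dapk1 held 4 WT regions elsewhere, none with a KO counterpart, the nearest 9.38 kb from the KO-only region. Adgra3, an adhesion receptor gene, followed with 17 reads (fold 7.56) in a stretch where the nearest WT region was 1.44 Mb away. Lower were Znrf3, whose product removes WNT receptors from the cell surface (15 reads, 7.41), Slc2a9, a urate transporter gene (14 reads, 7.38), Il12rb2, a chain of the interleukin 12 receptor (14 reads, 7.35), and Calcb, a neuropeptide gene (14 reads, 7.28).

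Between genes, the strongest region was 168 kb from the neurofilament gene Nefm (chr14:68292669-68292943, 19 reads, 11.4 to 29.7, fold 9.17), with no WT region within 241 kb. The most isolated was 762 kb from Slitrk1, a neuronal membrane protein gene (chr14:109676142-109676352, 17 reads, 8.86), where the nearest WT region was 2.84 Mb away. Another, 152 kb from the neuropeptide gene Adcyap1 (17 reads, 8.57), was 1.70 Mb from a WT region. These 3 stood in wide stretches without any WT call. By contrast, a region at chr15:62457196-62457450 (21 reads, 8.15) was 670 bp from a WT region of 13 reads, and one 18.4 kb from Il21, a T cell cytokine gene (chr3:37204095-37204348, 17 reads, 9.90 to 27.2, fold 7.83), was 817 bp from a WT region of 13 reads. Neither WT neighbour had a KO region. The remaining ones of the 8 strongest were near Tnks (169 kb, 15 reads), Gucy2e (29.1 kb, 15 reads) and Camk1g (262 kb, 14 reads). The Camk1g region was tied at a fold of 7.38 and 14 reads with regions near Suclg1 (243 kb), Atp5g1 (5.37 kb) and Smim10l1 (57.8 kb), and was taken by its coordinate.

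In 16 lists with 264 genes of thymocyte, iNKT, replication, housekeeping and other-lineage biology, 4 genes had a KO-only region at an end (1.52%) and 10 at an end or in the body (3.79%), where 0.991% and 1.99% of all protein-coding genes did. Lists of CAF-1 and histone chaperones, of maturation, of effector genes, of germline and early embryo genes and of B cell, myeloid, erythroid and stromal markers had 0 genes of either kind. Id3, an inhibitor of E protein transcription factors that counts in both the early iNKT list (1 of 21 at an end) and the E protein list (1 of 7), had 14 reads (7.65 to 23.5) at chr4:136143692-136143900. Its summit was 45 bp upstream of the start, and the 14 reads correspond to 18.6 at WT depth against a limit of 10, with a lower bound of 10.2. The nearest WT region was 4.01 kb away, and Id3 had no other region in either list. Slamf6, a receptor of the SLAM family that takes part in iNKT selection, had 11 reads (5.49 to 19.7) inside the gene (chr1:171921436-171921635), 76.1 kb from a WT region.

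Of 33 DNA replication and cell cycle genes, 27 had a WT region at an end, 17 a shared KO region and 1, Cdc6, a KO-only region. Over all protein-coding genes the shares were 34.6%, 20.3% and 0.991%, and 1.99% had a KO-only region at an end or in the body. Cdc6 loads the replicative helicase at origins. Its region (chr11:98907606-98907878) had 11 reads (5.49 to 19.7), a fold of 5.90, and lay 29.7 kb from the nearest WT region. Among 34 WNT ligand and receptor genes Wnt10a was the single one. Of 14 thymocyte survival and death genes, Bcl2l11, which encodes the pro-apoptotic protein BIM, had 18 reads (10.7 to 28.4) 87 bp upstream of a start inside the gene (chr2:128127381-128127633), which corresponds to 23.9 reads at WT depth against a limit of 12. Bcl2l11 also held 2 WT regions, the stronger with 29 reads and the nearest 1.14 kb away, and neither had a KO region. Of the 31 DP identity genes 1 was met, Tox, which encodes an HMG-box protein needed for CD4 lineage development, with 9 reads (4.12 to 17.1) in its body beside 6 WT regions, 1 of them kept in KO.

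Housekeeping genes were met in 2 of 24 cases and neural genes in 2 of 12, at an end or in the body. Over all protein-coding genes that share was 1.99%. Actb, encoding beta actin, had 19 reads (11.4 to 29.7) inside the gene, 599 bp from a WT region of 21 reads. Tubb5, a beta tubulin gene, had 2 KO-only regions 108 bp apart with 11 and 10 reads, 2.66 kb or more from a WT region of 18 reads. In 12 neural genes, Nefh, the heavy neurofilament gene, shared a region with the adaptor gene Ap1b1 (10 reads, 53 bp from a WT region of 10 reads), and Sox2, a transcription factor of neural and stem cells, had 11 reads (5.49 to 19.7) inside the gene (chr3:34651130-34651329), 631 kb from any WT region. At Slamf6, Tox, Nefh and both Tubb5 regions the lower bound of the scaled reads did not exceed the WT limit. As a check of the labelled cell type, 8 of 12 DP marker genes had a WT region at an end and 1 a KO region (all protein-coding genes 34.6% and, for any KO region, 21.1%), while the 38 B cell, myeloid, erythroid and stromal markers had 3 and 0. At an end or in the body, 3 of 12 DP and 1 of 8 B cell markers had a KO region, and 0 of the others. The KO count at ends was not above the share of all genes, so the check rests on the WT list.

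The lowest significance among KO-only regions was at Gsr, encoding glutathione reductase (7 reads, −log10 q 1.31), between genes near Ptpn12 (7 reads, 1.52), inside Msl2 (8 reads, 2.01), and at Sp9 (8 reads) and Plekha5 (8 reads, both 2.06). At the other end stood the Tmem161a region (15.7), the one near Nefm (13.4), that in Dapk1 (12.7), the one at chr15:62457196-62457450 (12.6) and that near Slitrk1 (11.99). The widest regions were at the ends of Erap1, a peptidase that trims peptides for MHC class I (657 bp, 13 reads), Reck (547 bp, 10 reads), Mms22l (517 bp, 11 reads) and the kinase gene Akt2 (477 bp, 12 reads), and inside Zfp322a (468 bp, 10 reads). None of these 5 had more than 13 reads. Pairs of KO-only regions within 50 kb of each other were found 18 times. Besides the Tubb5 pair the closest were 484 bp apart near Twf2 (16 reads each, chr9:106211260-106211473 and chr9:106211958-106212169), 12.6 kb apart at Tdrp, 16.4 kb near Lhx1, 16.7 kb between Nup107 and Rap1b and 22.6 kb near Nek6 and Psmb7. A further pair each near the starts of the assembled sequences of chromosomes 9 and 10 lay in very high local background.

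By chromosome, KO-only regions made up between 4.27% (7 of 164, 1.73 to 8.60) of KO regions on chromosome X and 9.83% (40 of 407, 7.11 to 13.1) on chromosome 4, apart from chromosome Y with 2 of 16. Chromosome 3 had 4.52% (2.75 to 6.97), and its interval and no other lay wholly below the 7.39% of the whole list. Chromosomes 1, 11 and 4 had 9.25%, 8.99% and 9.83%, with intervals that held the whole-list share.

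**Figure D5:**
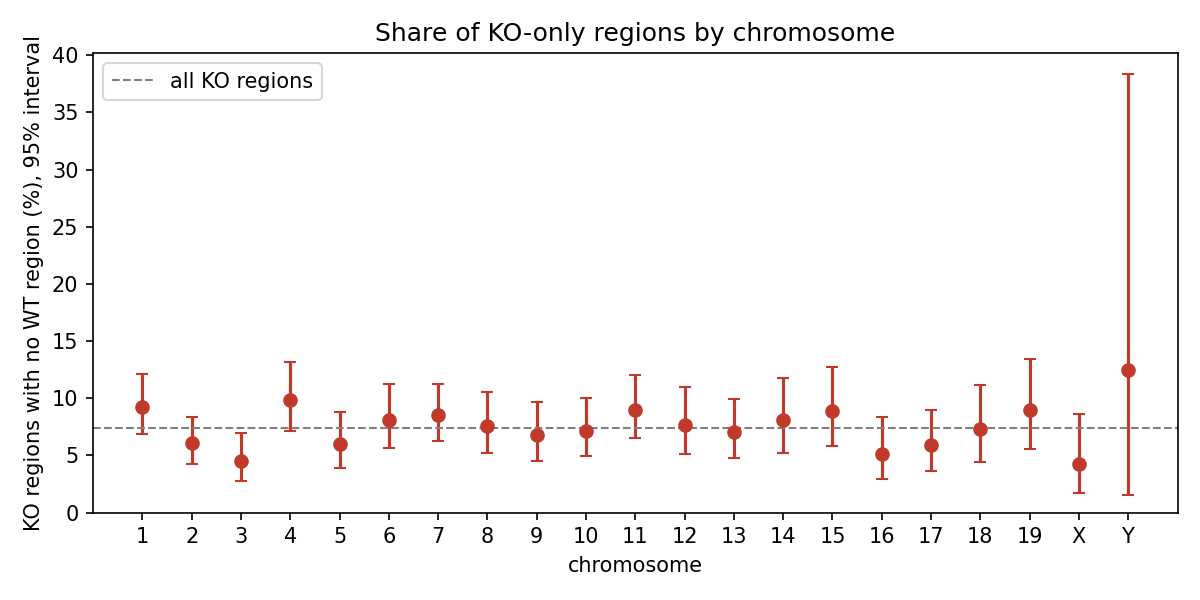
Percentage of KO regions that are KO-only on each chromosome with exact 95% intervals, and the share in the whole KO list (dashed line, 7.39%). All intervals but that of chromosome 3 cross the line, and they are not adjusted for the number of chromosomes.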

How the data were processed

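ATAC-seq was done on 4 samples, 2 WT and 2 KO. Per the series' design text, the authors made each deposited list from both replicates. The tools named are MACS2 2.1.4, Bowtie2, deepTools 3.4.1, Picard, GATK, Trim Galore and FastQC, with build mm10, per the submitters' processing notes. Order and settings, any shift for the transposase cut among them, are not given in the sources used here. The authors deposited, for each region, a score (the whole part of 10 times the −log10 q), a fold enrichment (ratio of summit to background) and −log10 of p and q. Lowest −log10 q was 1.31 in KO and 1.32 in WT.

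Summit reads and local background were solved from the deposited fold, (pileup + 1) / (background + 1), and −log10 p, taken as a Poisson tail. Solved pileups of KO-only regions were whole within 0.000967. The most frequent background was taken as the genome background and as relative depth. Library totals were not used here. Gene ends came from RefSeq on GRCm38.p6, the assembly behind mm10, and starts from 32851 RefSeq promoter windows of 27025 genes. Some protein-coding genes, such as Tmem161a, have no window among these. Intervals are exact (Clopper-Pearson or Poisson, 95%), cover counting error only and come from regions, not mice. No test between groups was possible with 1 list per group. Overlap meant 1 bp or more. The solver, overlap and class rule were tested on simulated data. Named regions were the strongest overall and per class (at ends and in bodies, of protein-coding genes), with ties taken by coordinate, those at list genes, and extremes of q, width, distance and pairing. Members and lists were chosen with earlier results of these data known. Computations ran in Python 3.11.15 with scipy 1.17.1, pandas 2.3.3 and numpy 2.4.6, and plots in matplotlib 3.10.9.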

Additional observations from a re-analysis of the deposited data

How the results depend on the processing

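Of 52 alternative values for 8 results, 40 stayed within the interval of the reported value or within 1.5 times its count. With a KO −log10 q of at least 5, 295 of the 565 KO-only regions were left, 58 in place of 125 within 1 kb of a WT region, and the medians were 6.07 for fold and 13 for reads. The share at gene ends, 39.1%, was 32.2% with a window of 500 bp, 47.0% with 2000 bp, 32.4% with protein-coding genes only, 33.3% where a WT region within 500 bp counted as overlap and also 33.3% at 1000 bp, the last added after seeing the data. The share in gene bodies, 39.9%, was 45.7% with 500 bp and 33.3% with 2000 bp, and the share between genes, 21.0%, was 28.8% with protein-coding genes only. A −log10 q of at least 2, autosomes alone, or leaving out local background over 4 times the genome's moved none of the 8 results by more than those bounds. Leaving out a replicate could not be done. No paired analysis was possible because each list pools both replicates.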

Other observations

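KO-only regions in very high local background were few. In 5, the background was over 4 times that of the genome. Near the start of the assembled sequence of chromosome 9, regions at chr9:3012157-3012362 and chr9:3015257-3015459 had 170 and 185 reads, folds of 1.87 each and a local background of 90.2 and 98.3 reads, up to 95.2 times the genome background. WT regions within 25 kb of the second, 20 in number, had backgrounds of 54.0 to 132. On chromosome 10, regions at chr10:3109995-3110268 and chr10:3114856-3115089 had 50 and 77 reads against backgrounds of 24.6 and 30.9. The fifth lay 5.32 kb from Duxf3, a gene of the repeated Dux array whose product activates genes of the early embryo (chr10:58223961-58224183, 28 reads, 18.6 to 40.5, background 8.94). WT had 4 regions within 25 kb of it, with up to 32 reads and backgrounds of 3.58 to 10.8, the nearest 558 bp away. Scaled to WT depth, the lower bound of the reads was above the WT limit in both chromosome 9 regions (193 against 162 and 212 against 174) and at chr10:3114856-3115089 (80.8 against 67). It was below the limit at chr10:3109995-3110268 (49.3 against 55) and near Duxf3 (24.7 against 26). What part the high local background had in these calls was not tested.

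KO-only and WT-only regions lay at like distances from the regions that both lists held. The median distance to the nearest shared region was 47.9 kb (quartiles 17.8 and 136 kb) for KO-only and 52.5 kb (19.7 and 127 kb) for WT-only regions.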
